A study of Caenorhabditis elegans with 36 samples.

Results

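Whole wild-type (N2) worms were fed RNAi bacteria against *cco-1* or bacteria with the empty vector (ev), their RNA was sequenced, and the comparison described here is that of *cco-1* RNAi with ev at day 5 of adulthood. It rests on 6 of the 36 libraries of the series, 3 from *cco-1* RNAi worms and 3 from ev worms, which were taken by the day and the RNAi in their titles. In the *cco-1* group, 50% of the bacteria were *cco-1* RNAi bacteria and the rest were control bacteria. In the ev group all bacteria carried the empty vector, and both groups were otherwise N2 worms kept on RNAi bacteria since hatching. The other 30 libraries cover the same 2 diets at days 1, 3, 7, 9 and 11, and those of days 3 and 7 serve below to show where day 5 differs. Each library is a pool of whole worms, so that a lower value can mean fewer cells of a type or less RNA per cell, and these cannot be told apart. The harvest protocol in the labels names the L4 and young adult stages, whereas titles and methods state days of adulthood, and the days were followed.

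The *cco-1* gene encodes a nuclear subunit of cytochrome c oxidase, complex IV of the respiratory chain, which passes electrons to oxygen. Complex IV also holds subunits encoded by mitochondrial DNA, so that it is built from the products of both genomes. In worms, partial loss of respiratory chain subunits during larval growth is known to slow development, to induce mitochondrial chaperones such as *hsp-6* and to lengthen life. Day 5 lies around the end of self-fertile egg laying in N2 worms, which have used up their own sperm by about then. The study asks which genes, among them those of lysosomal proteases, keep a raised level under this stress as worms age.

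The values are CPM, read counts scaled to library size, and sorted by size they are nearly the same in each library, as quantile normalisation makes them: the value of rank 10 was 3019 CPM in all 36 libraries. Because ranks set the values, 3 of the most abundant genes (*eef-2*, *vit-2* and *vit-6*) had equal values in all 6 libraries of day 5. Read depth is unknown, no counting error can be given, and precision is judged from the spread between the 3 libraries of each group. The limma standard errors and *P* values below use 1 spread per gene over all 12 groups of the series. They therefore also carry spread from days other than day 5. The median standard deviation (SD) between libraries on the log2 scale was 0.105 in *cco-1* RNAi worms and 0.0743 in ev worms. Replicate 2 of *cco-1* RNAi stood apart by gene length. Its values deviated from the group mean by a median of 0.0838 (log2) in the shortest of 10 equal classes of genes by transcript length and by -0.146 in the longest, while the medians of the 3 ev libraries stayed between -0.0322 and 0.0316 in all 10 classes. Counts of 3 or more genes that change by over 1.5 times without it, or without another library, are given with and without that library. A second pattern concerns few genes. The transcripts *rrn-3.56*, *rpl-37*, *nduo-3*, *C36C9.10*, *D1005.t1* and *ZK380.t2*, which were chosen after their values were seen, differed between the 6 *cco-1* RNAi libraries of days 1 and 3 and the 12 of days 5 to 11. For example, *rpl-37* measured 3.55 to 7.51 CPM in *cco-1* RNAi worms of days 5 to 11 and 27 to 34.3 CPM in those of days 1 and 3, against 16.1 to 30.6 CPM in the 18 ev libraries. The labels name no batch for these libraries, and what sets these transcripts apart was not tested.

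Of 15713 genes that could be tested at day 5, 2631 rose with *cco-1* RNAi (16.7%) and 2610 fell (16.6%) by limma on log2(CPM + 1), where a call needed a log2FC beyond 0.5 in either direction and an adjusted *P* (Benjamini-Hochberg) of less than 0.05. Together they made up 33.4% of the genes tested, and these shares are the background against which the count of each gene group below is to be read. The shares varied with transcript length. In the shortest of the 10 length classes, 367 of 1563 genes were higher and 259 lower, and in the longest 148 and 277. The median log2FC was 0.144 and -0.0447 in these 2 classes, and 0.106 and 0.0331 without replicate 2 of *cco-1* RNAi. How far length adds to the counts of single gene groups was not tested. A gene was tested if it reached 1 CPM in at least 3 of the 36 libraries, a limit that 192 genes met with exactly 3 libraries and 223 missed with 2. The libraries of other days count here too. Among the genes tested, 1007 stayed below 1 CPM in all 6 libraries of day 5, and 49 of these were called. Adding 1 CPM before taking logs shrinks the log2FC of weakly expressed genes. The median log2FC over all genes tested was 0.06. Large effects were more often decreases: 547 genes exceeded a log2FC of 1, and 933 lay below -1. In 5225 of the 5241 called genes (99.7%), the 3 libraries of one group did not overlap the 3 of the other. Among all genes tested, all 3 *cco-1* RNAi libraries lay above the ev libraries in 39.3% and below them in 31.0%. The exons of some genes named below overlap those of another gene, among them *ins-37* (363 of 955 bases), *rrn-3.56* (290 of 852), *clec-85* (397 of 1434), *hrg-3* (93 of 450) and *his-24* (174 of 923), and without strand the reads there cannot be told apart. Nothing in the labels says how far the replicates were grown apart, and *P* values measure the spread between pools within the 12 groups of the series.

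**Figure D1:**
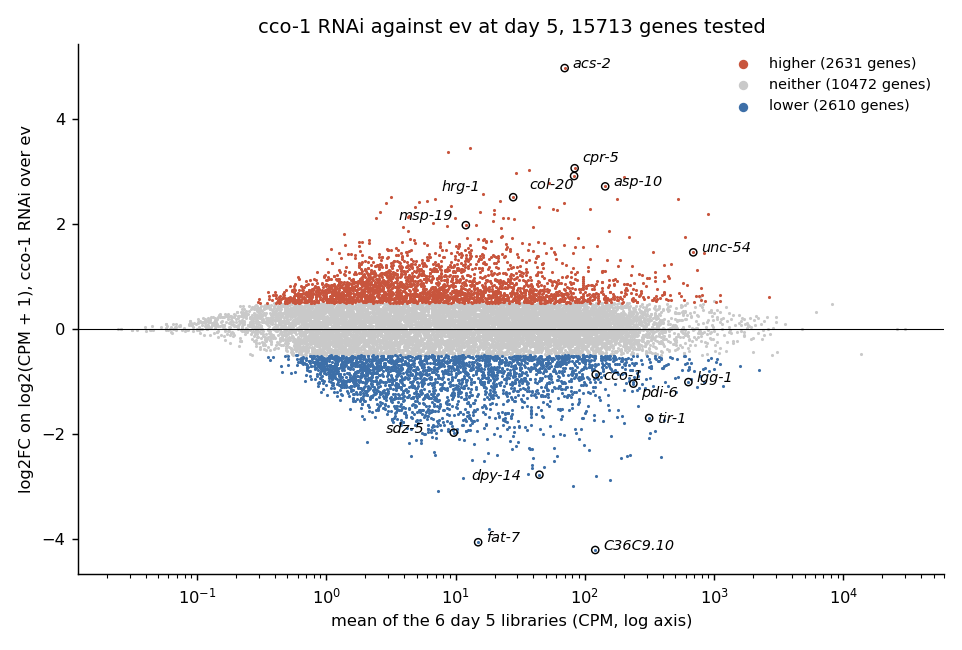
Effect of *cco-1* RNAi at day 5 on the 15713 genes tested, as log2FC on log2(CPM + 1) against the mean CPM of the 6 libraries (log axis). Red points are the 2631 genes called higher, blue points the 2610 called lower and grey points the rest, and circles mark genes described in the text, from *acs-2* at 4.97 to *C36C9.10* at -4.21.

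The target of the RNAi was lower in every *cco-1* RNAi library. *cco-1* measured 82.1, 92.7 and 82.2 CPM in *cco-1* RNAi worms, against 149.8, 169 and 151 CPM in ev worms. The groups did not overlap, with log2FC -0.86 (standard error 0.0613, adjusted *P* = 4.3e-15 from limma). In WBcel235 it spans 9788725 to 9790050 of chromosome I, where its exons share no base with other genes. Here and below, the effects of 2 days were compared by the interaction of day and RNAi in limma at the same thresholds. The decrease was smaller at day 5 than at day 3, by 0.70 on the log2 scale (adjusted *P* = 4e-08 from limma), and its difference from day 7 was 0.00.

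Lysosomal proteases of the cathepsin B family were higher or did not pass. Cathepsins are proteases that digest proteins in the acidic lysosome. Of the 10 cathepsin B genes tested, 5 were higher and 0 were lower (median log2FC 0.44). *cpr-5* measured 138, 173 and 138 CPM in *cco-1* RNAi worms, against 16.8, 17.8 and 16.1 CPM in ev worms. No library overlapped the other group, and the log2FC was 3.07 (standard error 0.111, adjusted *P* = 1.7e-19 from limma). *cpr-8* was less abundant, with 7.55, 7.92 and 8.01 CPM in *cco-1* RNAi worms against 1.66, 1.74 and 1.76 CPM in ev worms (log2FC 1.70, adjusted *P* = 9.9e-17 from limma). *F57F5.1*, of the same family, was higher (log2FC 1.08), at 476, 466 and 469.8 CPM in *cco-1* RNAi worms against 226, 222 and 219 CPM in ev worms. By contrast, the most abundant member, *cpr-6*, had a log2FC of 0.17 and did not pass. *F32H5.1*, a protease gene that the study names, did not pass either, with a log2FC of 0.04 (adjusted *P* = 0.72 from limma). For *cpr-5* and *cpr-8*, the effect at day 5 was smaller than at day 3 (differences of -0.72 and -0.54), and for *cpr-5* it was larger than at day 7 (difference 0.81).

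The other protease families were divided. Of 12 aspartic proteases, 3 were higher and 3 were lower. The largest increase was that of *asp-10*, with 246, 253 and 250.4 CPM in *cco-1* RNAi worms against 37.5, 36.2 and 37.6 CPM in ev worms (log2FC 2.72, standard error 0.242, adjusted *P* = 3.3e-10 from limma). *asp-8* was also higher (log2FC 2.28), as was *asp-5* (0.78). *asp-17*, in contrast, measured 25.4, 19.8 and 21.7 CPM in *cco-1* RNAi worms, against 70.4, 74.1 and 70.2 CPM in ev worms, and was lower in every *cco-1* RNAi library (log2FC -1.65). The abundant *asp-1* had a log2FC of 0.25 (adjusted *P* = 0.24 from limma) and did not pass. Of 9 cathepsin A genes, 3 were higher and 1 was lower. The lower one was *F13D12.6*, with 196, 169.7 and 179 CPM in *cco-1* RNAi worms against 387, 370 and 369 CPM in ev worms, whereas *Y16B4A.2* had a log2FC of 1.01. With all libraries, *ctsa-1* (log2FC 0.17) and *F41C3.5* (0.45), which the rules also name, were not called. Without replicate 2 of *cco-1* RNAi, 5 cathepsin A genes were higher. Among the cathepsins L, Z and F, 2 of 12 were higher and 1 was lower (3 without replicate 1 of *cco-1* RNAi), and neither *cpl-1* (log2FC 0.36) nor *cpz-1* (0.19), which encode cathepsins L and Z, passed.

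Genes of the V-ATPase and of proteases that degrade peptides at the cell surface showed more increases than decreases. The V-ATPase pumps protons into lysosomes and across some apical membranes. Of its 21 genes tested, 5 were higher and 0 were lower (median log2FC 0.34). *vha-6*, a subunit of the apical membrane of the intestine, measured 257, 239 and 255 CPM in *cco-1* RNAi worms, against 111, 105 and 109.9 CPM in ev worms, without overlap (log2FC 1.2, adjusted *P* = 2.7e-10 from limma). *vha-5* had a log2FC of 1.02 and *vha-4* one of 0.74. The neprilysins, membrane metalloproteases that cleave peptides outside the cell, had 10 of 24 higher and 0 lower, among them *nep-17* with 303, 220.4 and 307 CPM in *cco-1* RNAi worms against 150.4, 146 and 153 CPM in ev worms. Other lysosomal proteins went both ways, with 12 of 46 higher and 7 lower. The lysosomal DNase gene *nuc-1* was lower in all 3 libraries, at 33.1, 36 and 33.8 CPM in *cco-1* RNAi worms against 99.0, 103 and 96.9 CPM in ev worms (log2FC -1.51), as was its relative *crn-6* (-1.82). The lipase gene *lipl-1* was higher (log2FC 1.28), and of 2 genes of lysosomal membrane proteins, *lmp-1* was lower (-0.69) and *lmp-2* higher (1.13).

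**Figure D2:**
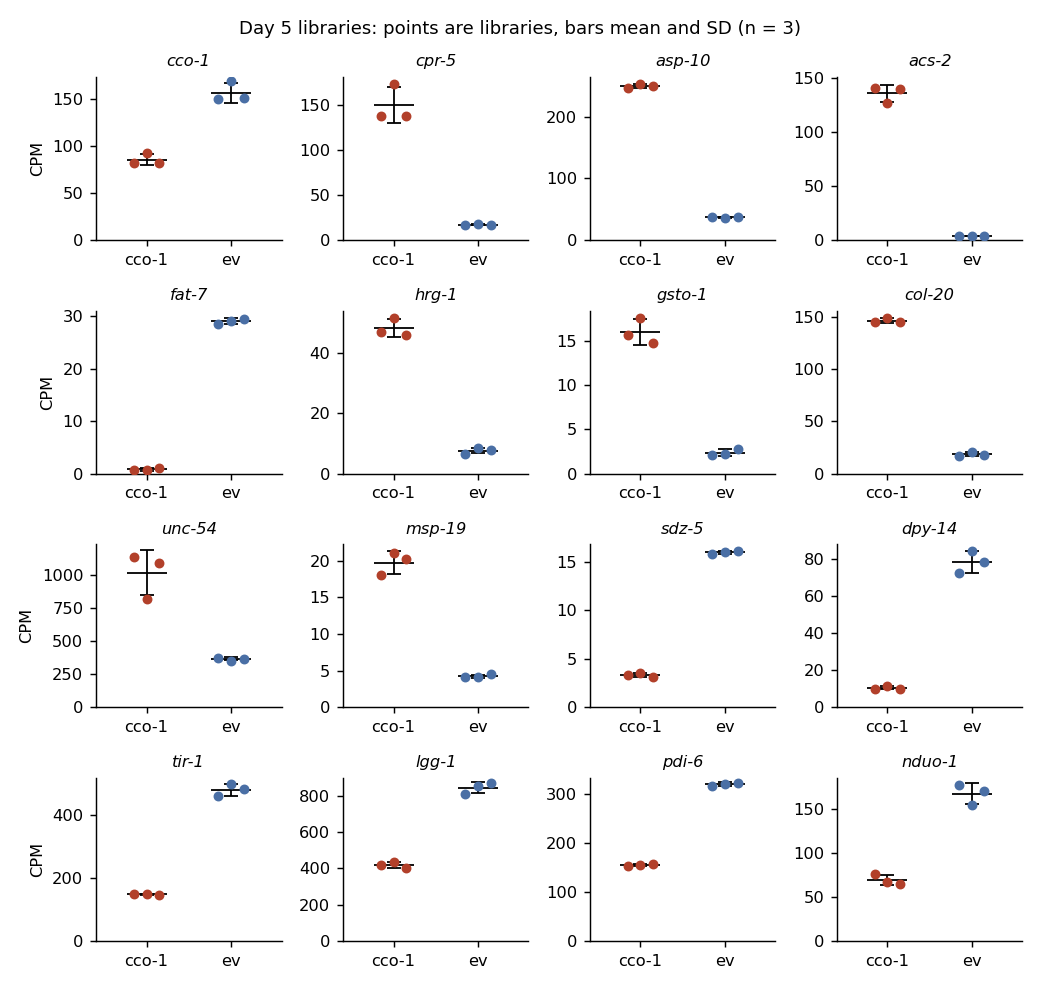
CPM of 16 genes in the 6 libraries of day 5, with *cco-1* RNAi on the left and ev on the right of each panel, points for libraries and bars for the mean and SD (n = 3). In each panel the 3 points of one group lie clear of the other 3, for example at 246, 253 and 250.4 CPM against 37.5, 36.2 and 37.6 CPM for *asp-10*.

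The largest increase of all genes and the largest decrease of a protein-coding gene were in fatty acid metabolism. *acs-2* encodes an acyl-CoA synthetase that prepares fatty acids for oxidation in mitochondria, and it measured 141, 127 and 140.1 CPM in *cco-1* RNAi worms, against 3.52, 3.41 and 3.15 CPM in ev worms. No library overlapped the other group (log2FC 4.97, standard error 0.427, adjusted *P* = 1.7e-10 from limma). *fat-7*, a stearoyl-CoA desaturase that introduces the first double bond into fatty acids, was low in *cco-1* RNAi worms, at 0.647, 0.706 and 1.08 CPM against 28.5, 29.1 and 29.5 CPM in ev worms. Its log2FC of -4.06 (adjusted *P* = 7.9e-25 from limma) leads the protein-coding genes that averaged at least 10 CPM in ev worms. *fat-5*, which encodes a palmitoyl-CoA desaturase, was also lower (-1.24). Desaturases that act later were higher: *fat-1* measured 412, 426 and 405 CPM in *cco-1* RNAi worms, against 219, 208 and 206 CPM in ev worms, and *fat-2* had a log2FC of 0.65. Over the whole group, 7 of 22 genes of fatty acid synthesis and desaturation were higher and 3 were lower, and 11 of 58 genes of fatty acid oxidation and the glyoxylate cycle were higher and 8 were lower. In the oxidation group *acdh-1*, an acyl-CoA dehydrogenase gene, was among the higher genes (1.47), and *cpt-6*, of the carnitine palmitoyltransferase family, was among the lower ones (-1.05). The decrease of *fat-7* was larger than at day 7, by a difference of -1.35, and its difference from day 3 was 0.03. In *cco-1* RNAi worms *fat-7* averaged 0.81 CPM at day 5 and 0.827 CPM at day 7, against 29.1 and 10.9 CPM in ev worms. The effect on *acs-2* did not differ between day 5 and day 3 (0.39) or day 7 (0.40) at the threshold.

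Genes of glucose metabolism had smaller changes, and those that passed were increases. Of 22 genes of glycolysis and gluconeogenesis, 6 were higher and 0 were lower (median log2FC 0.42). *pck-1*, which encodes the gluconeogenic enzyme phosphoenolpyruvate carboxykinase, measured 115, 107 and 114 CPM in *cco-1* RNAi worms, against 52.3, 47.6 and 48.7 CPM in ev worms. The aldolase genes *aldo-1* (0.85) and *aldo-2* (0.64) and the glyceraldehyde phosphate dehydrogenase genes *gpd-2* (0.67) and *gpd-3* (0.73) rose too. For *aldo-1*, *gpd-2* and *gpd-3* the effect was smaller than at day 3. *sodh-1*, an alcohol dehydrogenase gene, had 38.6, 38.3 and 37.5 CPM in *cco-1* RNAi worms against 8.35, 6.89 and 8.93 CPM in ev worms (log2FC 2.12). *cth-1*, a cystathionine lyase gene, was higher (1.5) and *cbs-1*, a cystathionine synthase gene of the same route from methionine to cysteine, was lower (-0.77).

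Heme and metal handling and detoxification genes included several of the largest increases. Worms cannot make heme, the cofactor of cytochromes, and take it from their food. *hrg-1*, which encodes a heme transporter of intestinal vesicles, measured 46.7, 51.6 and 46.0 CPM in *cco-1* RNAi worms, against 6.61, 8.56 and 7.72 CPM in ev worms (log2FC 2.51, adjusted *P* = 2.2e-20 from limma). The heme-responsive genes *hrg-2* and *hrg-3* moved the same way: *hrg-2* was at 12.5, 12.1 and 12.6 CPM in *cco-1* RNAi worms against 1.03, 2.28 and 1.07 CPM in ev worms, and *hrg-3* at 5.15, 5.86 and 5.56 CPM against 0.296, 0.122 and 0.276 CPM. No library of either group overlapped the other for these 3 genes. The *hrg-3* effect was larger than at day 3, by 1.41. Of the 18 genes of metal storage and transport, which hold these 3, 7 were higher and 1 was lower, and *cdr-4*, a cadmium-responsive gene, had a log2FC of 2.26.

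Of 36 glutathione S-transferases, which conjugate reactive compounds to glutathione, 16 were higher and 1 was lower (median log2FC 0.47). *gsto-1* measured 15.7, 17.6 and 14.7 CPM in *cco-1* RNAi worms, against 2.08, 2.23 and 2.80 CPM in ev worms, and the SKN-1 target *gst-4* 29.8, 28.6 and 29.2 CPM against 7.49, 9.24 and 8.71 CPM. The cytochrome P450 family had 22 of 63 higher and 9 lower, and the UDP-glucuronosyltransferases 13 of 61 higher and 7 lower. Among them *cyp-14A1* (2.16) and *ugt-62* (2.29) showed the largest increases. *ugt-62* was at 185, 182 and 184 CPM in *cco-1* RNAi worms and 38.6, 36 and 35.9 CPM in ev worms, and its effect was smaller than at day 3 and larger than at day 7. Of the 16 genes of superoxide dismutases, catalases, peroxiredoxins and thioredoxins, 4 were higher and 1 was lower, including *sod-3* (1.21) and both genes of the mitochondrial thioredoxin pair, *trx-2* (0.87) and *trxr-2* (0.78).

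Among respiratory chain genes, those of the ATP synthase were higher more often than all genes tested, and none of mitochondrial DNA was higher. Of the 15 nuclear genes of the ATP synthase, 7 were higher and 0 were lower (median log2FC 0.44), for example *atp-3* with 517, 517 and 503 CPM in *cco-1* RNAi worms against 311, 321 and 305 CPM in ev worms. Of 16 nuclear genes of complexes II and III, 4 were higher and 0 were lower, and of 12 of complex I, 2 were higher and 0 were lower, a share of increases equal to that of all genes tested. Within complex IV, *cco-1* itself was the 1 gene of 10 that was lower, while *F29C4.2* (0.84) and *cco-2* (0.55) were higher. Without replicate 2 of *cco-1* RNAi, *cco-2* had a log2FC of 0.47 and was not called, which left 1 higher gene in complex IV, and 1 was higher in complex I. Transcripts of mitochondrial DNA had 0 of 11 higher and 5 lower (median -0.49). *nduo-1*, a complex I subunit, measured 76.3, 67.5 and 64.6 CPM in *cco-1* RNAi worms, against 178, 155 and 171 CPM in ev worms (log2FC -1.26, adjusted *P* = 6.7e-14 from limma). *ctc-3*, a complex IV subunit like *cco-1*, was at 786, 714 and 754 CPM in *cco-1* RNAi worms and 1612, 1495 and 1677 CPM in ev worms, whereas *ctc-1* had a log2FC of -0.27 and did not pass. The summed level of all transcripts of mitochondrial DNA was 3684 to 3885 CPM in *cco-1* RNAi worms and 5524 to 5839 CPM in ev worms. *nduo-3* is among the few transcripts named above that differ between earlier and later *cco-1* RNAi libraries, and its log2FC of -2.83 is to be read with that.

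Few genes of mitochondrial ribosomal proteins passed the test at day 5. Genes of mitochondrial chaperones, proteases and import were higher about as often as all genes tested, and lower less often. Of 21 genes of mitochondrial chaperones, proteases and import, 4 were higher and 1 was lower. *hsp-6*, the mitochondrial Hsp70 and the usual marker of this response, measured 519, 463 and 511 CPM in *cco-1* RNAi worms, against 314, 314 and 313 CPM in ev worms. Its increase was moderate and without overlap (log2FC 0.66, standard error 0.0555, adjusted *P* = 4.3e-13 from limma). *timm-23*, the channel of the inner membrane import complex, had a log2FC of 0.77 and *tomm-20*, a receptor of the outer membrane, one of 0.57, while *dnj-10* was at 0.04 and did not pass. Mitochondrial ribosomal proteins had 4 of 66 higher and 1 lower, and cytosolic ribosomal proteins 4 of 80 higher and 1 lower, all below the background. Without replicate 2 of *cco-1* RNAi or replicate 3 of ev, 2 cytosolic ribosomal protein genes were higher. The ribosomal protein gene *rpl-37* is among the few transcripts named above that differ between earlier and later *cco-1* RNAi libraries. The count of decreases among cytosolic ribosomal proteins is to be read with that. No proteasome subunit of 32 was called by limma, and at an unadjusted *P* below 0.05 12 were higher and 12 lower. Of 22 nuclear regulators of the mitochondrial stress response, 1 was higher and 5 were lower. The decreases included the histone demethylase genes *jmjd-3.1*, at 13.3, 13.2 and 15.1 CPM in *cco-1* RNAi worms against 35.9, 37.8 and 37.7 CPM in ev worms (log2FC -1.36), and *jmjd-1.2* (-0.67), as well as *ubl-5*, a ubiquitin-like protein (-0.84), and the histone methyltransferase gene *met-2* (-0.60). *atfs-1*, the transcription factor of the mitochondrial unfolded protein response, had a log2FC of 0.23, below the threshold for a call, though its groups did not overlap. The regulators *cbp-1* (-0.41), *dve-1* (-0.10) and *hda-1* (0.01), which the study also names, were not called.

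GATA factors are zinc finger proteins that bind the bases GATA, and *elt-2* is the main one of the adult intestine. *elt-2* measured 21.6, 21.4 and 22.3 CPM in *cco-1* RNAi worms, against 24.1, 24.6 and 23.7 CPM in ev worms. The *cco-1* RNAi libraries were slightly below the ev libraries, and the difference did not pass (log2FC -0.14, standard error 0.0866, adjusted *P* = 0.14 from limma). Its difference from day 7 was -0.48 and was not called. Of the 8 GATA factor genes, *elt-3* was higher (0.63), and *elt-1* (-1.04), which specifies the epidermis in embryos, and *elt-7* (-0.54), a relative of *elt-2* in the intestine, were lower. Without replicate 3 of *cco-1* RNAi, *elt-7* had a log2FC of -0.46 and was not called.

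More cuticle collagens were higher than lower, and more body shape collagens were lower than higher. The cuticle of worms is made of many collagens secreted by the epidermis, most of them during moults. Of 145 cuticle collagen genes in the table, 119 reached the level for testing, and their summed level was 11262 to 11906 CPM in *cco-1* RNAi worms and 4554 to 4888 CPM in ev worms. Of the 119, 39 were higher and 9 were lower. Of the 145 in the table, 74 were below 1 CPM in all 6 libraries of day 5, so that many tested members could hardly be called. *col-140* measured 1511, 1366 and 1535 CPM in *cco-1* RNAi worms, against 316, 335 and 309.7 CPM in ev worms (log2FC 2.2). *col-20* had 145, 149 and 145 CPM in *cco-1* RNAi worms and 16.9, 20.6 and 18.2 CPM in ev worms, and this was the largest increase of the group (log2FC 2.92, adjusted *P* = 4.7e-10 from limma). Next came *col-80* (2.90), *col-159* (2.79) and *col-119* (2.49), and the adult collagen gene *col-19* was higher as well (1.87). For *col-20*, *col-80*, *col-119* and *col-159* the effect was larger than at day 3. Many collagen genes are close relatives, and reads that fit more than 1 of them equally well were not counted.

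The 19 body shape collagens, whose mutants are short, fat or rolling, gave 1 higher and 6 lower, and 8 of them were below 1 CPM in all 6 libraries. Their summed level was 40.3 to 42.0 CPM in *cco-1* RNAi worms and 155 to 177 CPM in ev worms. *dpy-14* accounted for much of it, with 10, 11.7 and 10.1 CPM in *cco-1* RNAi worms against 72.6, 84.1 and 78.3 CPM in ev worms (log2FC -2.77, adjusted *P* = 9.1e-23 from limma). *dpy-17* (-2.04), *sqt-3* (-1.91) and *dpy-2* (-1.67) were lower too. For these 4 genes the effect at day 5 was below that at day 3, and for *dpy-14* and *sqt-3* it was less negative than at day 7. The group of moulting and apical matrix genes gave 11 of 23 lower and 4 higher. *noah-1*, a protein of the transient matrix over the embryonic and moulting epidermis, was at 31, 29.1 and 29.6 CPM in *cco-1* RNAi worms and 93.1, 104 and 102 CPM in ev worms, and *noah-2* (-1.65), *lpr-3* (-1.86) and the fibrillin-like *fbn-1* (-1.59) had decreases of similar size. Larger decreases were those of *wrt-10*, a hedgehog-related gene (-2.77), and *hch-1*, which encodes a metalloprotease needed for hatching (-2.37). The hedgehog-related genes as a list gave 6 of 37 higher and 8 lower (16.2% and 21.6%), and *grd-3* was among the higher ones (1.67). Basement membrane genes gave 4 of 13 higher and 3 lower (median log2FC 0.37). Among them the laminin genes *lam-1* (-0.80), *lam-2* (-1.13) and *lam-3* (-1.26) were lower, while the perlecan gene *unc-52* was higher (0.92).

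Most body wall muscle markers were higher. Of 20 markers, 14 were higher and 1 was lower (median log2FC 0.88). The myosin heavy chain gene *unc-54* measured 1135, 819 and 1088 CPM in *cco-1* RNAi worms, against 373, 351 and 367 CPM in ev worms. Replicate 2 of *cco-1* RNAi was the lowest of its group and still above all ev libraries (log2FC 1.46, standard error 0.166, adjusted *P* = 2.6e-08 from limma). *tnt-2*, a troponin T, was at 158, 157 and 153 CPM in *cco-1* RNAi worms and 59.4, 61.6 and 63.4 CPM in ev worms. The second myosin *myo-3* (1.25) and paramyosin, *unc-15* (1.23), followed. The summed markers reached 4679.9 to 5370.3 CPM in *cco-1* RNAi worms and 2852 to 2909 CPM in ev worms. Their effect was not larger than at day 3 or day 7 for any member, and was smaller than at day 3 for 3.

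Neuropeptide genes of the *flp* and *nlp* families gave 22 of 59 higher and 1 lower. *flp-28* measured 45, 46.3 and 44.9 CPM in *cco-1* RNAi worms, against 19.6, 22.4 and 21.8 CPM in ev worms (log2FC 1.06, adjusted *P* = 1.1e-14 from limma), and *nlp-12* (1.04), *nlp-7* (0.98) and *flp-24* (0.95) were close to it. Of general markers of neurons, 3 of 22 were higher and 3 lower, and their summed level was 744 to 789 CPM in *cco-1* RNAi worms and 701 to 726 CPM in ev worms. The level for testing, which counts libraries of all days, was reached by 17 of 17 intestine, 13 of 13 hypodermis and 15 of 16 pharyngeal markers. At day 5, 0 intestine, 3 hypodermis and 4 pharyngeal markers of these lists were below 1 CPM in all 6 libraries. Of the markers tested, 4 intestine markers were higher and 2 lower, and 2 hypodermis markers were higher and 4 lower. For the pharynx, 3 markers were higher and 1 was lower. Without replicate 2 of *cco-1* RNAi, 6 pharyngeal markers were higher, and without replicate 3 of ev, 4 hypodermis markers. Cilia genes were lower in 7 of 32 cases with all libraries, in 3 without replicate 2 of *cco-1* RNAi and in 4 without replicate 1 of ev. The vitellogenins, the yolk proteins made by the intestine, gave 2 of 6 lower, *vit-3* (-0.74) and *vit-4* (-0.79). *vit-3* stayed called in 3 of the 6 fits without 1 library and lost its call without replicate 2 of *cco-1* RNAi. *vit-2* and *vit-6* carry no information because their values are tied.

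**Figure D3:**
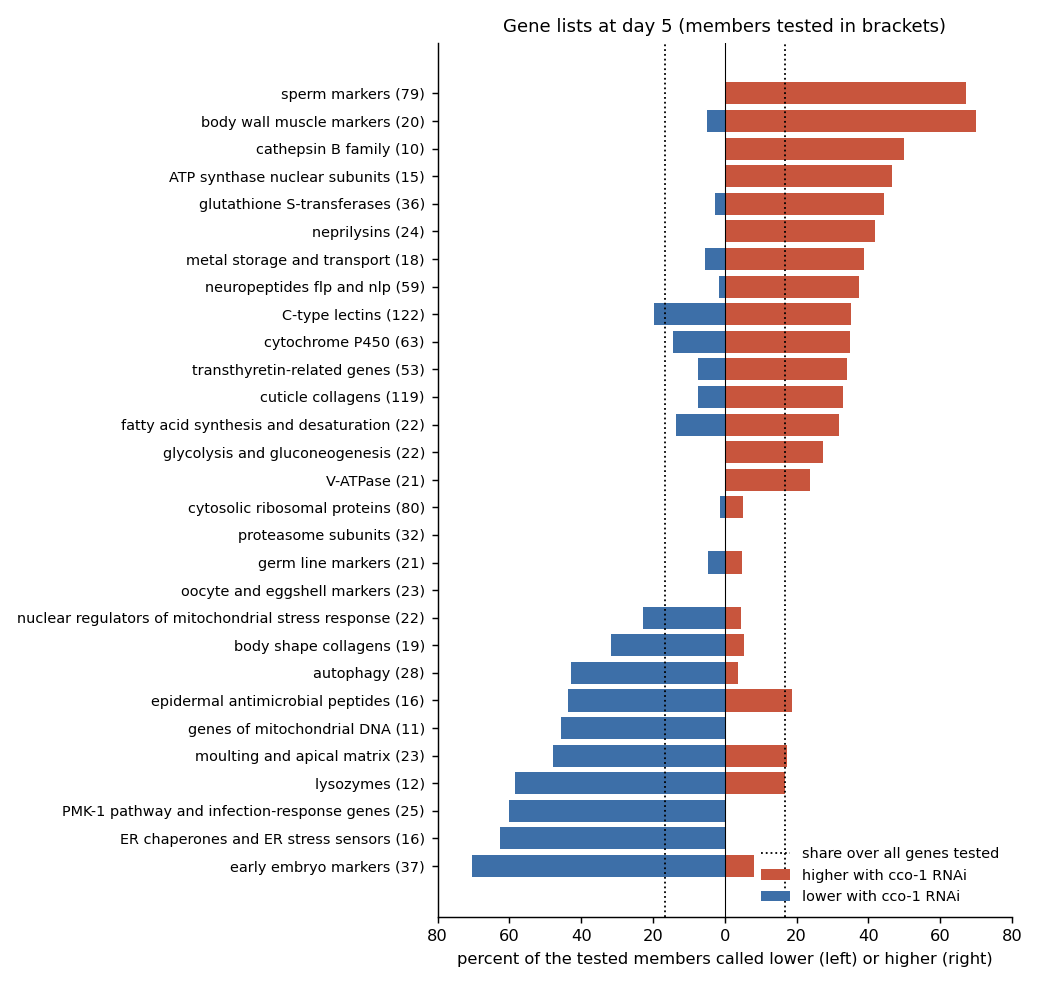
Share of the tested members of 29 gene lists called higher (red, right of 0) or lower (blue, left of 0) with *cco-1* RNAi at day 5, with the number tested in brackets. Dotted lines mark the shares over all genes tested, 16.7% higher and 16.6% lower, and the bars run from sperm markers, 67.1% of them higher, to early embryo markers, 70.3% of them lower.

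Most sperm markers were higher, and most markers of early embryos were lower. Of 81 sperm markers, 79 were tested, 53 were higher and 0 were lower (median log2FC 0.72). Their summed level was 772 to 844 CPM in *cco-1* RNAi worms and 393 to 414 CPM in ev worms. *gsp-3*, a phosphatase of sperm, measured 20.8, 20.9 and 18.6 CPM in *cco-1* RNAi worms, against 6.09, 6.55 and 5.27 CPM in ev worms (log2FC 1.6, adjusted *P* = 1.1e-19 from limma). *msp-19*, one of the major sperm proteins, was at 18, 21.1 and 20.2 CPM in *cco-1* RNAi worms and 4.09, 4.15 and 4.50 CPM in ev worms. The *msp* genes are near-identical copies of each other, so that reads of 1 may be lost or assigned to another and they are uncertain as single genes. *alg-3* (1.33) and *alg-4* (1.31), Argonautes of spermatogenesis, were higher as well. Of 16 markers of the spermatheca, uterus and gonad sheath, 5 were higher and 0 were lower, and without replicate 1 of *cco-1* RNAi 3 were higher. The effect was larger than at day 7 for 55 of the 79 markers and smaller for 0, and larger than at day 3 for 17 and smaller for 1. Over the days, *gsp-3* averaged 21.3, 20.1 and 25.4 CPM at days 3, 5 and 7 in *cco-1* RNAi worms, against 11.0, 5.97 and 20.9 CPM in ev worms, where day 5 was the lowest of the 6 days.

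Of 47 markers of early embryos, 37 were tested, 26 were lower and 3 were higher, and the median log2FC was -0.73. Most are transcripts that the embryo makes itself, such as the *sdz* genes, whose transcription in embryos depends on SKN-1. *sdz-5* measured 3.32, 3.53 and 3.15 CPM in *cco-1* RNAi worms, against 15.8, 16 and 16.1 CPM in ev worms (log2FC -1.97, adjusted *P* = 2.9e-18 from limma). *sdz-28* was at 8.47, 10.9 and 10.3 CPM in *cco-1* RNAi worms and 32.7, 34.9 and 31.9 CPM in ev worms. *sdz-4* (-1.53) and *sdz-30* (-1.53) were lower, and *sdz-27* was higher (0.83). The summed level of the list was 257 to 259 CPM in *cco-1* RNAi worms and 322 to 331 CPM in ev worms. Of 21 markers of the adult germ line, 1 was higher and 1 was lower. No marker of oocytes and the eggshell of 23 was called by limma, and at an unadjusted *P* below 0.05 13 were higher and 3 lower. Several of the decreases above belong to genes known from embryonic epidermis and organs, among them *elt-1*, *pha-4* (-1.30), *dpy-14*, *noah-1*, *wrt-10* and *hch-1*, and how much of them embryos carried by the worms contribute was not tested. The largest decreases also included 2 linker histone genes. *hil-3* measured 31.9, 46.0 and 33.2 CPM in *cco-1* RNAi worms, against 257, 298 and 269 CPM in ev worms, and *his-24* 7.35, 13.8 and 9.54 CPM against 68.1, 73.6 and 60.9 CPM. Genes of DNA replication gave 5 of 26 lower and 0 higher, among them *rnr-2*, a ribonucleotide reductase subunit (-0.91), and the licensing factor gene *cdt-1* (-0.91).

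Genes of the X chromosome were lower more often than those of the autosomes, a comparison made after the data were seen. In worms the X chromosome is largely silent in the germ line and holds many genes of somatic tissues. Of 2165 X-linked genes tested, 749 (34.6%) were lower and 248 (11.5%) were higher, and their median log2FC was -0.24. Of 13452 autosomal genes, 13.7% were lower and 17.6% were higher (median 0.09). X-linked genes thus made up 13.8% of the genes tested and 28.7% of those that were lower. Per library, the median log2(CPM + 1) of X-linked genes minus that of autosomal genes was -0.53, -0.51 and -0.52 in *cco-1* RNAi worms, against -0.26, -0.25 and -0.23 in ev worms. The groups did not overlap and differed by -0.27 on average. An exact permutation test of this difference gave *P* = 0.1. That is the smallest value that 3 libraries against 3 can give, so the test cannot decide and the difference is a description. The share of lower genes was above that of the autosomes in each of 4 equal classes of genes by level, from 29.8% against 19.2% in the lowest class to 38.9% against 7.99% in the highest. With a pseudocount of 5 CPM, 21.9% of X-linked and 7.75% of autosomal genes were lower. Chromosome IV lay at the other end, with 21.9% of its tested genes higher and 11.5% lower.

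The X-linked effect was largest at day 5 among the 6 days. The median log2FC of X-linked genes was -0.07, -0.05, -0.24, -0.14, -0.03 and 0.07 for the 6 days in order, day 5 being the third. Called lower against day 3 were 26.0% of the X-linked and 8.85% of the autosomal genes, and against day 7 2.96% and 2.36%. The level of X-linked genes relative to the autosomes peaked at day 5 in ev worms, whereas in *cco-1* RNAi worms it was near its day 3 level.

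**Figure D4:**
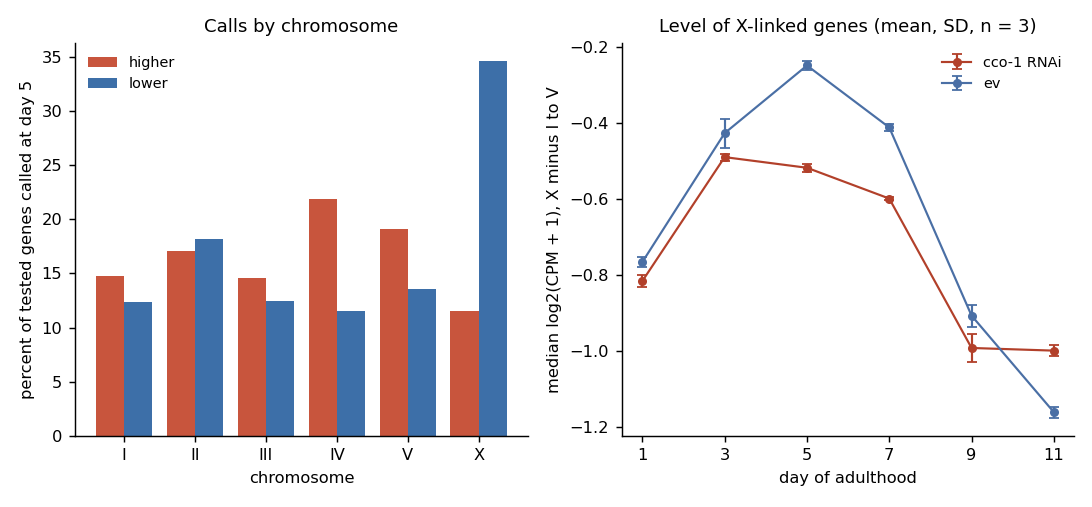
Left, percent of tested genes called higher (red) or lower (blue) at day 5 by chromosome, with X at 11.5% higher and 34.6% lower. Right, median log2(CPM + 1) of X-linked minus autosomal genes by day in *cco-1* RNAi (red) and ev worms (blue), as mean and SD of 3 libraries, which at day 5 was -0.52 in *cco-1* RNAi worms and -0.25 in ev worms.

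Genes of the PMK-1 pathway and infection response were lower more often than higher. The p38 kinase PMK-1 acts in the intestine downstream of the adaptor TIR-1 and sets the level of many infection-response genes. Of 25 genes of this pathway and of infection response, 15 were lower and 0 were higher (median log2FC -0.61). *tir-1* measured 148, 149 and 146 CPM in *cco-1* RNAi worms, against 461, 499 and 481 CPM in ev worms, with no overlap (log2FC -1.69, standard error 0.0767, adjusted *P* = 2.9e-18 from limma). *T24B8.5*, a target of PMK-1 used as its reporter, was at 17.1, 17.6 and 20.0 CPM in *cco-1* RNAi worms and 58.1, 56.4 and 58.6 CPM in ev worms. *C17H12.8* had the largest decrease of the list (-2.99), and *irg-3* (-1.41) and the transcription factor gene *zip-2* (-1.01) were lower too. Lysozymes, which break bacterial cell walls, were lower in 7 of 12 cases and higher in 2. *lys-7*, the most abundant, measured 1352, 1056 and 1219 CPM in *cco-1* RNAi worms, against 1964, 1906 and 1999 CPM in ev worms, while *ilys-3* went the other way (1.26). Antimicrobial peptides of the epidermis gave 7 lower and 3 higher of 16, *nlp-31* among the lower ones (-2.34).

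C-type lectins, a large family of secreted proteins that respond to infection, gave 43 higher and 24 lower of 122 tested, out of 196 in the table, and 81 of those in the table stayed below 1 CPM in all 6 libraries. *clec-17* measured 5.62, 6.58 and 6.12 CPM in *cco-1* RNAi worms, against 0.190, 0.184 and 0.343 CPM in ev worms, and *clec-76* 4.71, 4.50 and 5.56 CPM against 0.160, 0.319 and 0.308 CPM. Both were near the lower limit of the table in ev worms, where log2(CPM + 1) understates a ratio. Among the decreases, *clec-85* was at 34.7, 34.5 and 33.6 CPM in *cco-1* RNAi worms and 165, 167 and 154 CPM in ev worms, and *clec-196* (-2.60) and *clec-266* (-2.41) had larger ones. The saposin-like genes, some of which encode pore-forming antibacterial proteins, gave 5 of 19 higher and 4 lower.

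Genes of autophagy and of protein folding in the endoplasmic reticulum (ER) were lower more often than higher. Of 28 autophagy genes, 12 were lower and 1 was higher (median log2FC -0.37). *lgg-1*, the homologue of yeast and mammalian Atg8 that coats autophagosomes, measured 419, 436 and 402 CPM in *cco-1* RNAi worms, against 811, 853 and 869 CPM in ev worms (log2FC -1.01, adjusted *P* = 4.8e-12 from limma). *sqst-1*, the homologue of the cargo receptor p62, was at 283, 272 and 287 CPM in *cco-1* RNAi worms and 564, 629 and 593 CPM in ev worms. *epg-2*, a receptor for the degradation of maternal granules in embryos, had the largest decrease (-2.04), followed by *atg-16.1* (-1.15) and *bec-1* (-1.1). For 10 of the 28 genes the effect was below that at day 3, *lgg-1* (-0.89) and *sqst-1* (-1.28) included, and for none did it differ from day 7 at the threshold. At day 3 the log2FC of *sqst-1* was 0.20 and that of *lgg-1* -0.13.

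Of 16 ER chaperones and ER stress sensors, 10 were lower and 0 were higher, and without replicate 2 of *cco-1* RNAi 6 were lower. *pdi-6*, a protein disulfide isomerase, measured 152, 155 and 157 CPM in *cco-1* RNAi worms, against 315, 319.8 and 323 CPM in ev worms, with little spread in either group (log2FC -1.04, standard error 0.104, adjusted *P* = 1.8e-09 from limma). The calreticulin gene *crt-1* was at 923, 773 and 885 CPM in *cco-1* RNAi worms and 1328, 1366 and 1399 CPM in ev worms. All 7 X-linked members of the group were among the 10 that were lower, *pdi-6*, *dnj-7* (-0.94) and *uggt-1* (-0.76) included, and 5 of the 7 were lower without replicate 2 of *cco-1* RNAi. Cytosolic heat shock genes gave 6 of 18 lower and 2 higher. *hsp-16.41* measured 6.15, 5.98 and 4.6 CPM in *cco-1* RNAi worms, against 13.4, 13.7 and 13.3 CPM in ev worms, and *hsp-70* 9.19, 8.37 and 9.59 CPM against 14.7, 15.3 and 15.7 CPM, while the abundant *hsp-1* had a log2FC of -0.44 that was not called.

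The effect at day 5 was nearer to that of day 7 than to that of day 3 in the number of genes called. Against day 3, 1345 genes (8.56%) had a higher and 1770 (11.3%) a lower effect, which made up 19.8% of the genes tested. Against day 7 the counts were 617 (3.93%) and 381 (2.42%), together 6.35%. Both comparisons share the libraries of day 5 and are therefore not independent. Called in the same direction at day 5 and in both contrasts were 186 genes that were higher and 147 that were lower. With a floor of 10 CPM on the mean of the higher group, the increases of greatest size were *col-159*, *col-139* (2.45), *msp-19*, *F17E9.5* (1.77), *Y38C1AA.7* (1.69) and *F32H2.7* (1.67). The largest decreases were *clec-196*, *Y45G5AM.5* (-2.49), the transthyretin-related *ttr-50*, the bZIP gene *zip-8* (-2.45), *F28D1.2* (-2.30) and the arrestin-domain gene *arrd-1* (-2.26). *ttr-50* measured 55.2, 65.5 and 52.3 CPM in *cco-1* RNAi worms, against 312, 331 and 320.2 CPM in ev worms. Over days 3, 5 and 7 it averaged 99.5, 57.7 and 40.5 CPM in *cco-1* RNAi worms, against 191, 321 and 129.9 CPM in ev worms.

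Between days 3 and 5, the genes called at day 5 changed more in ev worms than in *cco-1* RNAi worms. Genes called higher at day 5 had a median log2 change between days 3 and 5 of 0.01 in *cco-1* RNAi worms and -0.34 in ev worms. For genes called lower it was 0.01 in *cco-1* RNAi worms and 0.53 in ev worms. These medians use the libraries of day 5 that also decided the calls and are a description with no test. *asns-2*, an asparagine synthetase gene, is an example: it averaged 32.2, 29.9 and 20.9 CPM at days 3, 5 and 7 in *cco-1* RNAi worms, against 62.8, 214 and 225 CPM in ev worms. *pdi-6* showed a similar course, with 161, 155 and 145 CPM in *cco-1* RNAi worms, against 161, 319 and 282 CPM in ev worms. In contrast, *acs-2* hardly moved in ev worms, with 106, 136 and 86.6 CPM in *cco-1* RNAi worms, against 3.46, 3.36 and 2.69 CPM in ev worms.

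**Figure D5:**
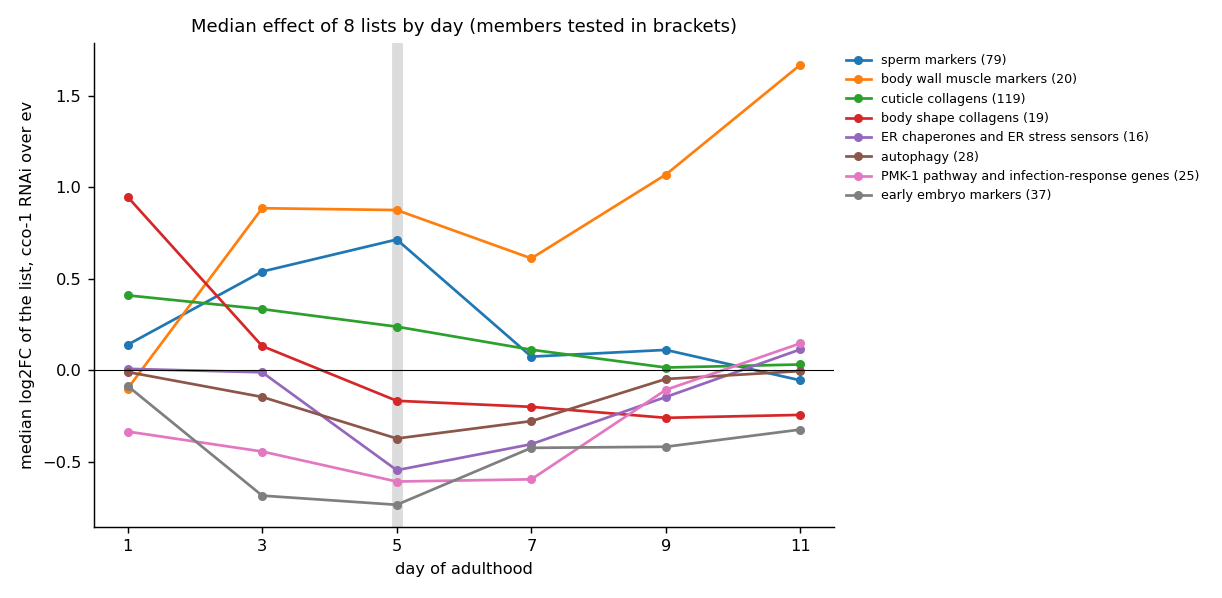
Median log2FC, *cco-1* RNAi over ev, of the tested members of 8 gene lists at days 1 to 11, with day 5 shaded and the number of members in brackets. The ER chaperones go to -0.55 and the early embryo markers to -0.73 at day 5, the lowest point of each line, whereas the sperm markers reach their highest point, 0.72.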

How the data were processed

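PolyA RNA of pooled whole worms was sequenced on a BGISEQ-500 instrument. The authors aligned reads with STAR to WBcel235 (ce11), counted uniquely mapped reads per gene with htseq-count and no strand, and deposited linear CPM. Sorted values are nearly the same in the 36 libraries, which is read here as quantile normalisation, a step that no source used here names. In the processing notes the authors list STAR 2.73a and edgeR 3.24.3, while the methods give another STAR version and limma-voom. At day 5 library sums were 948818 to 952221 CPM, so that depth cannot be read from them. Further columns with the authors' fold changes and test values, and a sheet of gene sets, were not used.

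Genes at 1 CPM or more in at least 3 libraries (15713 of 18949) were fitted as log2(CPM + 1) in limma 3.58.1 (R 4.3.3, statmod 1.5.0) with 12 groups of 3 libraries and 24 residual degrees of freedom, moderated with trend and robust settings. Figures used Python 3.11.15 and matplotlib 3.10.9. *P* values were adjusted over all genes tested, and gene lists are described by counts and medians with no set test. The code of the fit was checked on simulated libraries with few changed genes and independent noise. These differ from the real libraries, so the check does not measure the accuracy of the calls. The Ensembl WBcel235 annotation matched 18823 genes, and no sequence was analysed here, so that a planned search of promoters was not run.

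The gene lists and comparisons were chosen with earlier results of these data known. Named genes are *cco-1*, genes named by the study, the 12 largest called changes in each direction at 10 CPM or more without overlap, up to 4 called members (at 5 CPM or more) and the 2 most abundant members of each list, and the 6 largest changes in each direction called in the same direction against days 3 and 7, at 10 CPM or more without overlap. Alternatives were other pseudocounts, filters, normalisations and fits, a replicate block and leaving out each library.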

Additional observations from a re-analysis of the deposited data

Results flagged for a closer look

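For 21 of the genes named by the rules, the effect of *cco-1* RNAi at day 5 differed from that at day 3 and from that at day 7 in the direction of the day 5 effect (limma interactions). A naming rule takes 6 genes in each direction by this same criterion. The count of 21 is therefore in part set by the rule and is a description only. The values are the day 5 effect minus the day 7 effect on the log2 scale. Among genes that were higher with *cco-1* RNAi, it was 1.33 for *gsp-3*, 1.2 for *msp-19*, 1.16 for *msp-38* and 0.90 for *alg-4*, all sperm or spermatogenesis genes. It was 1.16 for *F32H2.7*, 1.08 for *F17E9.5* and 1.08 for *Y38C1AA.7*, and 0.93 and 0.89 for the collagens *col-139* and *col-159*.

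Among genes that were lower with *cco-1* RNAi, the difference was -1.16 for *Y45G5AM.5*, -0.84 for *arrd-1*, -0.80 for *ttr-50*, -0.75 for *clec-196*, -0.60 for *F28D1.2*, -0.53 for *zip-8* and -0.55 for the insulin-like *ins-34*. It was -1.07 for *sdz-5*, -0.88 for *sdz-4* and -0.85 for *sdz-28*, all transcripts of early embryos, and -0.95 for *hsp-16.41* and -0.60 for *hsp-70*, heat shock genes. *sdz-5* averaged 5.83, 3.33 and 2.39 CPM at days 3, 5 and 7 in *cco-1* RNAi worms, against 16.3, 16 and 5.34 CPM in ev worms.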

How the results depend on the processing

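A pseudocount of 5 CPM gave 1184 genes higher and 1524 lower at day 5, with 43.7% of calls higher against 50.2% at 1 CPM, and 426 higher and 901 lower effects against day 3 and 166 and 97 against day 7. With 0.1 CPM, 248 genes had a lower effect than at day 7, and with a filter of 5 CPM it was 222. Requiring a log2FC beyond 1 left 547 genes higher and 933 lower, and no fold threshold gave 5920 and 4760. No filter, median centring, a further quantile normalisation, array weights, a fit without trend and robust settings and a fit of the 6 libraries alone kept the counts over all genes that they gave within 1.5 times, and no alternative reversed the direction of a called gene named by the rules. Leaving out 1 library gave 2592 to 2682 genes higher and 2589 to 2620 lower at day 5, 1291 to 1391 and 1730 to 1839 against day 3, and 576 to 606 and 331 to 378 against day 7. Of 351 genes named by the rules, 17 lost their call with a pseudocount of 5 CPM, 7 with array weights and 12 without replicate 2 of *cco-1* RNAi. Of 130 counts over gene lists, these settings moved 40, 10 and 17 by over 1.5 times. The settings for X-linked genes were chosen after seeing the data. Same-numbered libraries had deviations that correlated at 0.0104, 0.207 and 0.114, not all above 0.1, and replicate 1 of *cco-1* RNAi correlated best with replicate 3 of ev (0.142), so that the numbers were not taken as pairs. With the replicate block, 2631 genes were higher and 2610 lower, 1348 and 1769 against day 3 and 617 and 384 against day 7. Depth is unknown, so that what it limits cannot be given, and the planned count of promoter motifs was not run.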

Other observations

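The transthyretin-related genes, a large family of small secreted proteins in nematodes, gave 18 of 53 higher and 4 lower at day 5. The abundant *ttr-15* measured 819, 761 and 773 CPM in *cco-1* RNAi worms, against 455, 434 and 431 CPM in ev worms (log2FC 0.83), and *ttr-5* 63.8, 64.9 and 64 CPM against 31.8, 32 and 32.6 CPM. Nuclear hormone receptors gave 29 of 188 higher and 28 lower, close to the shares over all genes. *nhr-25*, a receptor needed for moulting and epidermal development, was at 8.58, 8.37 and 8.61 CPM in *cco-1* RNAi worms and 25.6, 28.7 and 24 CPM in ev worms, and *nhr-49*, a regulator of fatty acid metabolism, had a log2FC of -0.05 that was not called. Insulin-like peptides gave 5 of 26 higher and 5 lower, with *ins-27* at 16.1, 16.8 and 14 CPM in *cco-1* RNAi worms and 5.94, 6.89 and 6.59 CPM in ev worms, and *ins-37* lower (-1.49).

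The Argonaute *nrde-3*, which carries small RNAs into the nuclei of somatic cells, was at 42.3, 43.7 and 42.1 CPM in *cco-1* RNAi worms and 114, 121 and 115 CPM in ev worms, and the microRNA Argonaute *alg-2* was lower as well (-1.11). None of 16 genes of the uptake and amplification of feeding RNAi was called by limma, and at an unadjusted *P* below 0.05, 4 were higher and 8 lower. Of the lipid binding proteins, *far-3* was lower (-1.5) and *lbp-2* higher (0.88), with 5 of 17 genes higher and 2 lower in all.

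By limits chosen after the values were seen and with no test, a log2FC within 0.6 of 0 at days 1 and 3 and beyond 1 at each day from 5 to 11, 22 genes were above and 29 below ev at the later days. Batches are not named in the labels, and what sets these genes apart was not tested. Of the transcripts described in the report for their change between days 3 and 5, *rrn-3.56* measured 14.1 to 30.3 CPM in *cco-1* RNAi worms of days 5 to 11 and 1.06 to 1.52 CPM in those of days 1 and 3, against 0.814 to 3.05 CPM in ev worms of all days. *nduo-3* measured 0.484 to 2.48 CPM in the later *cco-1* RNAi libraries and 25.9 to 61.9 CPM in the earlier ones, against 4.87 to 74.0 CPM in ev worms. Summed ribosomal RNA overlapped between the groups at day 5, with 721 to 1128 CPM in *cco-1* RNAi worms and 745 to 1193 CPM in ev worms.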
